A study of Mus musculus with 10 samples.

Results

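The genes described are those of the eukaryotic translation initiation factors (eIF) and elongation factors (eEF), with the kinases, binding proteins and methyltransferases that carry an Eif or Eef symbol. Members were all genes whose symbol began with Eif or Eef and a digit, apart from Eif2s3x and Eif2s3y, and that had at least 1 probe set with a value in every cell and no second gene. This gave 56 of 17919 genes, 45 with an Eif and 11 with an Eef symbol, measured by 148 probe sets. The choice used symbols and complete values, not the size of any value.

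Initiation factors bring the initiator tRNA and the small ribosomal subunit to the cap of an mRNA, scan to the start codon and join the large subunit, and elongation factors then deliver each aminoacyl-tRNA and move the ribosome along the mRNA. Supply of initiator tRNA by eIF2, cap binding by eIF4E and translocation by eEF2 are known points of control, and each is set by kinases or binding proteins. In the early postnatal cerebellum Bergmann glia extend radial fibers along which granule cells migrate, and later in life these glia wrap and support the inputs of Purkinje neurons.

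Expression was profiled in 10 single Bergmann glial cells, 5 at P6 and 5 at P30, with 1 Affymetrix Mouse Genome 430 2.0 array per cell. All 10 cells came from the same GFAP-GFP reporter line, in which the Gfap promoter drives GFP, and no agent or further allele distinguishes the ages. The promoter marks astroglia in general, so Bergmann glia were picked one at a time from dissociated mid-sagittal cerebellum by bright fluorescence and their shape. The labels call the cells biological replicates and name no animal, so each age is treated here as 1 sample, no p-value is given, and SD and ranges describe the spread between cells. The deposited values are ratios, divided by the authors by the median of each array and by a typical value of each probe set. The median P6 cell stood at a ratio of 1 (tolerance 0.005) in 69.8% of complete probe sets, so a log2 ratio of 0 is close to a usual P6 cell and carries no level of expression. All values below are log2 ratios, a difference is the mean of the 5 P6 cells minus that of the 5 P30 cells, and a fold is the ratio of the geometric means. A fold given as "at least" has P30 values at the floor of 0.01 and is a bound for the geometric means at that floor, and a higher floor or another average can give less.

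Since ratios carry no level, the labelled cell type could not be checked by the presence or absence of its markers, and only deviations of a cell from the other 4 of its age were available. For P30 replicate 5, the median deviation of 9 measured of 10 endothelial and pericyte markers was 4.21, that of 16 of 16 neuronal markers 1.65 and that of 14 of 14 astroglial markers -0.79. The neuronal markers of P6 replicate 5 deviated by 0.42, the most among P6 cells on that list. P6 replicate 3 deviated by more, 1.10, on the list of 7 measured of 8 microglial markers. It was not left out together with the cells named replicate 5 below. All other cells lay between -1.23 and 0.50 on the 5 marker lists. The part of these cells in the results below was not tested. Without replicate 5 of both ages, 14 factor genes (25%) were over 3-fold higher at P6, against 10.5% of all genes, and the sign of the difference turned for Eif2ak3 (-0.18), Eif4a3 (-0.43), Eif5a2 (-0.58), Eef2 (-0.0021) and Eef2kmt (-0.37) among the named genes. Median scaling of the arrays would shift the median difference of all probe sets by -0.16 and scaling to the hybridisation spikes by 0.29.

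The translation factors had higher mean ratios at P6 more often than genes at large. The mean was higher at P6 in 42 of the 56 genes (75%), against 52.4% of all genes, and the median difference was 0.49, against 0.05 for all genes. After median scaling 36 of the 56 means (64.3%) were higher at P6, against 45.4% of all genes, and after spike scaling 49 (87.5%), against 66.4%. The median difference of the factors was 0.74 without P6 replicate 2 and 0.40 without P30 replicate 4. It was 0.33 after median scaling and 0.26 by the ratio of arithmetic means. The 45 initiation factor genes had a median difference of 0.69, with 35 higher at P6, and the 11 elongation factor genes one of 0.26, with 7 higher at P6. The sign of the difference turned for Eef2, Eif2ak4, Eif4a3, Eif4ebp1, Eif5 and Eif5a2 after median scaling and for Eef1a2, Eif3a, Eif3c, Eif4e, Eif4h, Eif6 and Eef1aknmt after spike scaling.

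**Figure D1:**
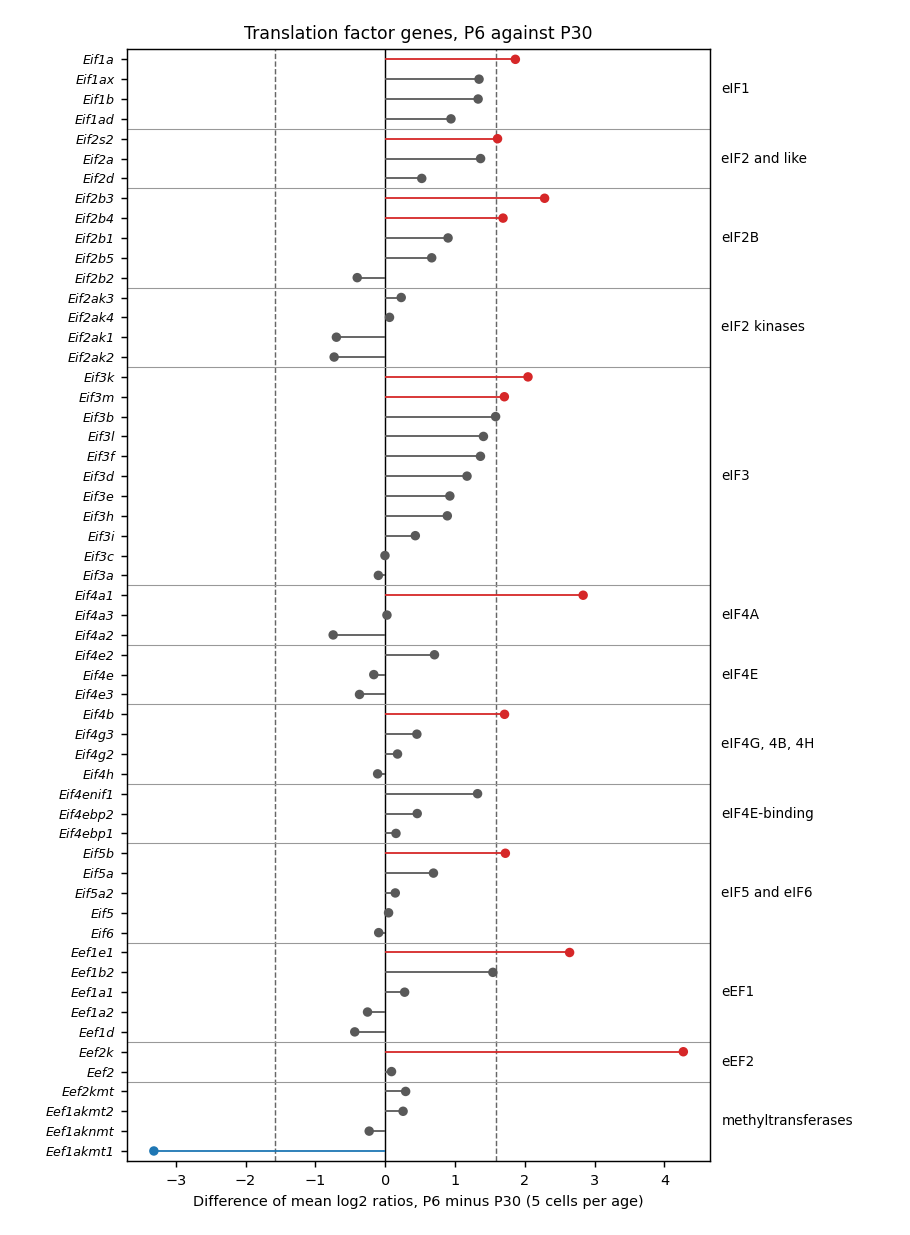
Mean log2 ratio of the P6 cells minus that of the P30 cells for each of the 56 genes, ordered by factor group. Dashed lines mark 3-fold; red points are the 11 genes more than 3-fold higher at P6, from Eif2s2 (1.61) to Eef2k (4.27), and the blue point is Eef1akmt1 (-3.31). The error of each point is not drawn and the cells behind it are in the map of log2 ratios.

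A difference over 3-fold (1.585 on the log2 scale) with higher values at P6 was met by 11 factor genes (19.6%), against 9.39% of all genes. These were Eef2k, Eif4a1, Eef1e1, Eif2b3, Eif3k, Eif1a, Eif5b, Eif4b, Eif3m, Eif2b4 and Eif2s2. Over 3-fold higher at P30 was Eef1akmt1 alone (1.79%), against 4.93% of all genes. Eif3b, at 1.58, lay just under the size rule, as did Eef1b2 at 1.54. The count at P6 was 7 (12.5%) without P30 replicate 4, against 9.18% of all genes, 6 (10.7%) after median scaling, against 8.03%, and 19 (33.9%) after spike scaling, against 13.2%. By the difference of medians over cells it was 6 (10.7%), which was no larger a share than that of all genes (11.3%). The count at P30 was 5 (8.93%) by the ratio of arithmetic means, against 8.97% of all genes. Of the 12 genes, Eef2k and Eef1akmt1 were over 3-fold in every alternative setting and with each cell left out. All 5 P6 cells lay above all 5 P30 cells in Eef2k and Eif3e (3.57%), against 2.13% of all genes, and the opposite order was found in 0 factor genes, against 1.41% of all genes. The count of P6 above P30 was 5 without P6 replicate 5, against 2.94% of all genes, 6 without P30 replicate 1, against 3.26%, 4 without P30 replicate 3, against 3.01%, and 6 without replicate 5 of both ages, against 3.83%. In 10 factor genes (17.9%) at least 4 of the 5 P30 cells lay below every P6 cell, against 6.45% of all genes: Eef1b2, Eef1e1, Eef2k, Eif1b, Eif3e, Eif3f, Eif3k, Eif3m, Eif4a1 and Eif4b. At least 4 P30 cells lay above every P6 cell in 0 factor genes, against 5.56% of all genes.

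Pairs of related genes with unlike differences run through these results, and the 100 bases upstream of the most upstream RefSeq start (build GRCm38.p6) are shown for 3 such pairs: Eef2k, over 3-fold higher at P6, and its substrate gene Eef2; Eif4a1 and its paralog Eif4a2; and Eef1b2 and Eef1a1, which encode subunits of the same elongation complex. Sequences are written 5′ to 3′ on the strand of the gene, and capitals mark any match to GGGCGG (GC box), CGGAAG (Ets core), CCAAT or TATAAA on either strand.
Eef2k, chr7:120842731-120842830, plus strand: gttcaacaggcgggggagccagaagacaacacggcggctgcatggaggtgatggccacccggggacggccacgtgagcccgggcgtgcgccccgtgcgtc
Eef2, chr10:81176531-81176630, plus strand: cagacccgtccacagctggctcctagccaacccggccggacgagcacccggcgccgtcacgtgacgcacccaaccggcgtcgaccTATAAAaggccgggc
Eif4a1, chr11:69672424-69672523, minus strand: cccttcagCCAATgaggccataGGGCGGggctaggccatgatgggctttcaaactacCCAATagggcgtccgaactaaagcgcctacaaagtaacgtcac
Eif4a2, chr16:23107368-23107467, plus strand: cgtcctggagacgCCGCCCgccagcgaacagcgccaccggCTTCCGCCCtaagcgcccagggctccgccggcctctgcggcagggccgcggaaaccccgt
Eef1b2, chr1:63176731-63176830, plus strand: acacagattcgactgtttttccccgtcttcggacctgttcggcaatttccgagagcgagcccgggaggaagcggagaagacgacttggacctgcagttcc
Eef1a1, chr9:78481725-78481824, minus strand: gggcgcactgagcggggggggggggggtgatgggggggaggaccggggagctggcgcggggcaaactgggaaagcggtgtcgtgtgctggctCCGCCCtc

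The stretch of Eef2 held TATAAA, that of Eif4a1 held CCAAT at 2 places and GGGCGG at 1, that of Eif4a2 held GGGCGG at 2 places, 1 of them overlapping CGGAAG, and that of Eef1a1 held GGGCGG once. None of these motifs was found for Eef2k or Eef1b2 in this window. Promoters of 45 of the 56 genes were at hand. GGGCGG was in 23 of them (51.1%), against 25.2% of 27025 promoters of all genes, and CGGAAG in 11 (24.4%), against 8.45%. CCAAT was in 8 (17.8%), against 19.6%, and TATAAA in the 2 promoters of Eef2 and Eif3f (4.44%), against 5.93%. The promoters of all genes include those of noncoding genes. A match of letters is a description and no measured binding.

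All 4 genes of the eIF1 group, whose best known products keep the scanning ribosome open until the start codon is found, had higher means at P6, with differences from 0.94 to 1.86 (median 1.34, and 0.70 without P30 replicate 4). Only Eif1a was over 3-fold, and the ages overlapped in all 4. Eif1b, a paralog of Eif1, had log2 ratios of 0.00, 0.28, 0.13, -0.24 and -0.19 in P6 replicates 1 to 5 and 0.78, -1.13, -0.78, -4.34 and -1.20 in P30 replicates 1 to 5. The P6 cells were close together, 4 P30 cells lay below all of them, and P30 replicate 1 lay above all of them. Its difference was 1.33, or 2.52-fold, and 0.58 without P30 replicate 4. The autosomal Eif1a and its paralog Eif1ax differed by 1.86 (3.64-fold) and 1.34 (2.54-fold), and without P30 replicate 4 Eif1ax differed by 0.63. Eif1a ranged from -3.97 to 1.58 at P6 and from -3.30 to -1.07 at P30, and its difference was 1.33 without P6 replicate 1, 1.54 without P6 replicate 4 and 2.72 without P6 replicate 2. Probe sets shared with other Eif1a-like loci were left out. In P30 replicate 4, Eif1ax stood at -5.08, the lowest of the 10 cells.

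Eif2s2, which encodes the beta subunit of eIF2, the carrier of initiator tRNA, had log2 ratios of 0.81, -0.38, -1.46, 0.20 and -0.22 in the P6 cells and -2.18, -1.37, -1.35, -2.83 and -1.35 in the P30 cells. The ages overlapped through P6 replicate 3, and the 5 P30 cells lay below the other 4 P6 cells. The difference of 1.61 (3.05-fold) was carried by all 6 probe sets, from 0.97 to 2.71. It lay under 3-fold, between 1.35 and 1.52, without P6 replicate 1, P6 replicate 4, P30 replicate 1 or P30 replicate 4. Eif2a, an alternative carrier of initiator tRNA unrelated to eIF2, differed by 1.37 (at least 2.58-fold), with overlap, and by 0.64 as the median of its probe sets.

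Of the 5 subunit genes of eIF2B, the exchange factor that recharges eIF2 with GTP, 4 had higher means at P6 and the median difference was 0.90. Eif2b3, the gamma subunit gene, had log2 ratios of 5.11, -0.31, -2.08, 0.00 and 5.15 at P6 and 0.15, -0.82, -0.65, 0.58 and -2.80 at P30. Its difference of 2.28 (4.87-fold) thus rested on P6 replicates 1 and 5, and was 1.40 without the former, 1.39 without the latter, 3.20 without P6 replicate 3 and 0.87 without both replicates 5. Eif2b4, the delta subunit gene, had 0.00, 0.24, -0.20, 0.11 and -1.09 at P6 and 0.28, 0.11, -1.54, -6.64 and -1.58 at P30. Only 1 of its P30 cells, replicate 4, lay far below the rest, at the floor of the values. The difference of 1.69 (at least 3.22-fold) was 0.50 without that cell and 1.58 without P6 replicate 2.

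Genes of the eIF2 kinases, which phosphorylate the alpha subunit of eIF2 and thereby slow initiation, had higher means at P6 in 2 of 4 and at P30 in the other 2, with a median difference of -0.32 (0.073 by medians over cells). Eif2ak1, the gene of the heme-regulated kinase, differed by -0.70 and Eif2ak2, the gene of the kinase activated by double-stranded RNA, by -0.73. All 5 probe sets of Eif2ak1 and all 3 of Eif2ak2 had higher means at P30. Eif2ak1 ranged from -1.09 to -0.15 at P6 and from -0.55 to 1.42 at P30, and Eif2ak2 from -1.86 to 0.23 and from -1.52 to 1.49, so the ages overlapped in both. For each of these genes 3 P30 cells lay above every P6 cell. Eif2ak3, the kinase gene of the endoplasmic reticulum stress response, differed by 0.23, within the SD between cells (0.67 at P6 and 0.84 at P30), and by -0.089 without P30 replicate 5. Eif2ak4, the kinase gene of the amino acid response, differed by 0.06, but its 2 probe sets differed by -2.65 and 2.77, so the mean describes neither, and the ratio of arithmetic means was -3.55.

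The eIF3 complex, the scaffold that joins the small subunit to the mRNA, had 11 genes measured, of which 9 had higher means at P6, with a median difference of 1.17. Eif3e had the 5 P6 cells at 0.53, 0.40, -0.20, -0.03 and -0.08 and the 5 P30 cells at -0.58, -1.26, -0.49, -1.13 and -0.53. The ages did not overlap. The gap between the lowest P6 and the highest P30 cell was narrow, and the difference was 0.93, or 1.90-fold. Of its 4 probe sets 3 kept the ages apart, with differences of 1.19, 1.24 and 1.84, and the fourth had -0.57. Without probe sets of the _x_at and _s_at kinds, which can match several transcripts, the difference was 0.33.

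Eif3k had log2 ratios of 0.19, 0.30, -0.03, 0.00 and -0.31 at P6 and 0.25, -6.21, -2.51, -1.08 and -0.52 at P30. P30 replicate 1 lay among the P6 cells and the other 4 below them, over a wide range. The difference was 2.05 (4.13-fold), 0.996 without P30 replicate 2 and 1.02 as a ratio of arithmetic means. Eif3m had 0.49, 1.01, -0.67, 0.00 and -0.77 at P6 and -0.26, -0.90, -1.33, -4.57 and -1.43 at P30. Here too P30 replicate 1 lay among the P6 cells. The difference was 1.71 (3.26-fold), 0.99 without P30 replicate 4 and 1.46 without P6 replicate 2. Among the other 8 genes of the complex, chosen after their values were seen, Eif3f differed by 1.36 with 4 P30 cells below every P6 cell. Eif3b differed by 1.58 with P30 replicates 2 and 4 at -6.64 and -6.44 and the other 3 P30 cells between 0.03 and 1.29. The genes of the largest subunits, Eif3a and Eif3c, differed by -0.10 and 0.00. The difference of medians put the complex at 0.37 in place of 1.17.

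**Figure D2:**
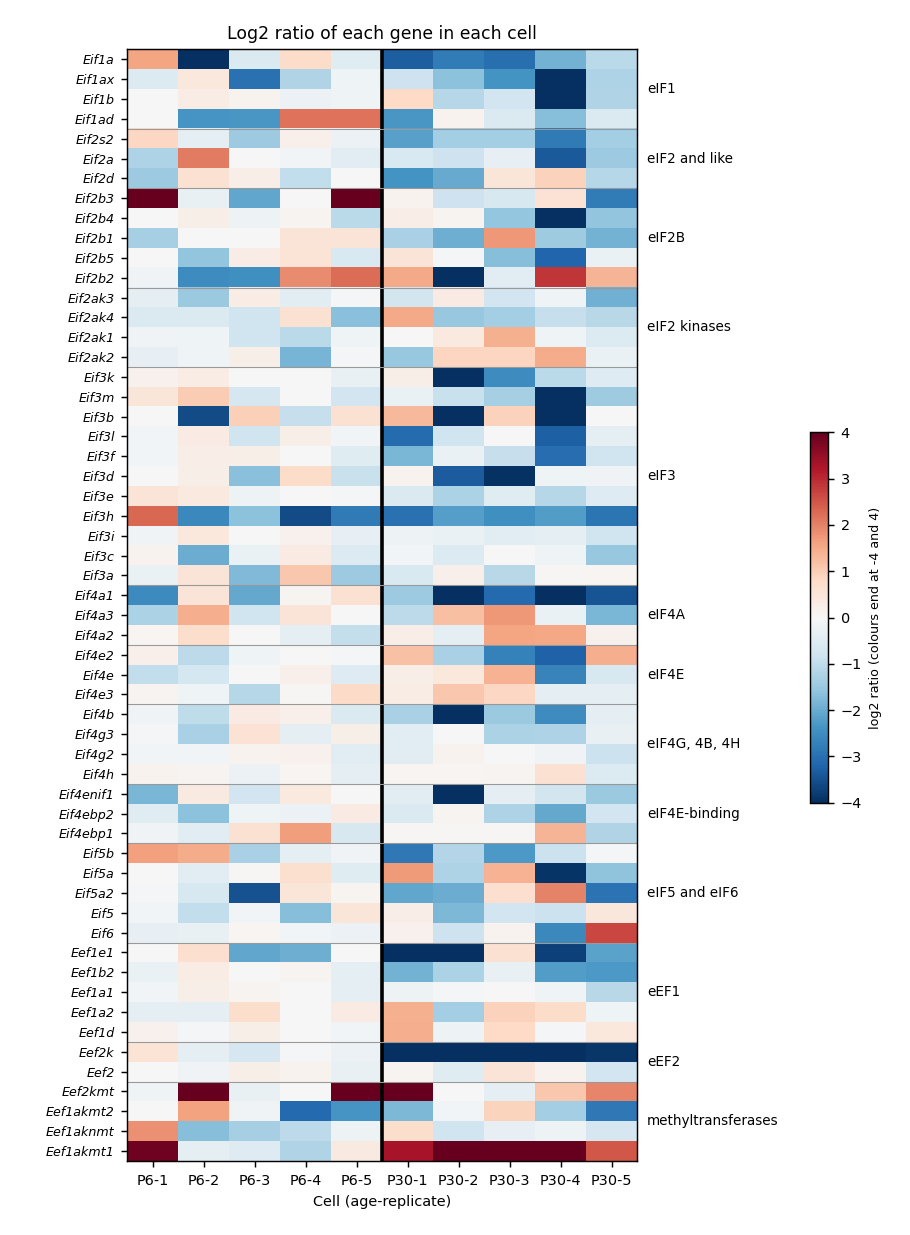
Log2 ratio of each of the 56 genes in each of the 10 cells, P6 replicates to the left and P30 replicates to the right of the black line, red above and blue below a ratio of 1; colours end at -4 and 4. Eef2k is dark blue in all 5 P30 cells and Eef1akmt1 red in all 5 P30 cells and in P6 replicate 1, while Eif2b4 and Eif3m are dark blue in P30 replicate 4 only.

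The eIF4A genes, which encode the RNA helicase that unwinds the leader of an mRNA, and its nuclear relative, had unlike differences. Eif4a1 had log2 ratios of -2.55, 0.52, -2.04, 0.12 and 0.61 at P6 and -1.45, -4.34, -3.11, -5.16 and -3.46 at P30. P30 replicate 1 lay within the P6 range and the other 4 P30 cells below it. The difference was 2.84, at least 7.14-fold, and its 3 probe sets differed by 1.42, 3.52 and 3.56. It was 2.04 with a floor of 0.1, 1.96 as a ratio of arithmetic means and 1.42 without the 2 probe sets that held a value at the floor. Eif4a2 had 0.07, 0.71, 0.00, -0.39 and -0.95 at P6 and 0.27, -0.38, 1.57, 1.54 and 0.16 at P30. P30 replicates 3 and 4 lay above all P6 cells and the ages otherwise overlapped, with a difference of -0.75. Eif4a3, the gene of the exon junction complex helicase, differed by 0.02, with SD of 1.07 at P6 and 1.5 at P30, and its sign turned without P6 replicate 2 or 4 or P30 replicate 1, 4 or 5.

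Of the cap-binding genes, Eif4e differed by -0.16, Eif4e3 by -0.37 and Eif4e2, whose product binds caps without recruiting the scaffold eIF4G, by 0.71. The ages overlapped in all 3, and the 5 probe sets of Eif4e2 ran from -2.92 to 4.03. The direction of Eif4e2 turned to -2.84 as a ratio of arithmetic means and to -1.31 without probe sets holding a floor value, and it differed by 1.30 without P30 replicate 5. Eif4e differed by 0.25 without P30 replicate 3 and by -0.77 without P30 replicate 4. The binding proteins of eIF4E, which keep it from the scaffold, had higher means at P6: Eif4ebp1 by 0.15 (with a sign that turned after median scaling, by medians over cells, by arithmetic means and without P6 replicate 4 or P30 replicate 5), Eif4ebp2 by 0.46 and Eif4enif1, which carries eIF4E into the nucleus, by 1.32. The 5 probe sets of Eif4ebp2 lay between 0.14 and 1.24. P30 replicate 2 of Eif4enif1 stood at -5.42, and the other 4 P30 cells lay between -1.48 and -0.38, and the difference without that cell was 0.39. The eIF4G relatives Eif4g2 and Eif4g3 differed by 0.18 and 0.45.

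Eif4b, the gene of an eIF4A cofactor, had log2 ratios of -0.15, -1.0, 0.33, 0.21 and -0.57 at P6 and -1.29, -4.07, -1.50, -2.52 and -0.35 at P30. P30 replicate 5 lay among the P6 cells and the other 4 below them. The difference was 1.71 (3.27-fold). It was 1.18 without P30 replicate 2, 1.56 without P30 replicate 4 and 1.57 without P6 replicate 3. Its 3 probe sets were not alike, at -0.41, 2.53 and 3.00, and their median gave 2.85, whereas arithmetic means gave 0.44.

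Eif5b, which encodes the GTPase that joins the subunits, ranged from -1.29 to 1.64 at P6 and from -2.85 to -0.07 at P30. The difference of 1.72 (at least 3.30-fold) came mainly from 1 of 3 probe sets, at 4.19 against 0.22 and 0.75. It was 1.23 with a floor of 0.1, 0.27 as a ratio of arithmetic means and 0.49 without probe sets holding a floor value. It lay between 1.37 and 1.51 without P6 replicate 1, P6 replicate 2, P30 replicate 1 or P30 replicate 3. Eif5a and Eif5a2, genes of the hypusine-bearing factor that resolves stalled ribosomes, differed by 0.69 and 0.14, less than the SD between P30 cells (2.33 and 2.10). Without P30 replicate 4, Eif5a differed by -0.11 and Eif5a2 by 0.86. The 5 genes of eIF5 and eIF6 had a median difference of 0.14.

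The eEF1 complex loads aminoacyl-tRNA onto the ribosome, and its subunits had unlike differences. Eef1a1, the gene of the tRNA-carrying alpha subunit, had log2 ratios of -0.10, 0.22, 0.11, 0.00 and -0.40 at P6 and -0.20, -0.08, 0.01, -0.18 and -1.11 at P30. Its 10 cells lay within 3-fold of each other, and P30 replicate 5 was the lowest. The difference was 0.28, and 0.08 without that cell. Its paralog Eef1a2, known from neurons and muscle, differed by -0.25, with SD of 0.47 at P6 and 1.09 at P30.

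Eef1b2, whose product exchanges the nucleotide of eEF1A, had -0.26, 0.28, 0.00, 0.10 and -0.39 at P6 and -1.89, -1.28, -0.30, -2.22 and -2.29 at P30. Of the P30 cells 4 lay below all P6 cells, and P30 replicate 3 lay among them. The difference was 1.54, or 2.91-fold, larger than the SD between cells (0.27 at P6 and 0.83 at P30), and leaving out single cells gave 1.37 to 1.87. Eef1d, another exchange subunit gene chosen after its values were seen, differed by -0.44, with probe sets of both signs. Eef1e1, which encodes a protein bound to the aminoacyl-tRNA synthetase complex, had 0.00, 0.66, -2.09, -1.95 and 0.01 at P6 and -6.44, -4.87, 0.62, -3.74 and -2.15 at P30. P30 replicate 3 lay within the P6 range and the other 4 P30 cells below it. The difference was 2.64 (6.24-fold), 1.86 without P30 replicate 1 and 3.62 without P30 replicate 3. As a ratio of arithmetic means it was 1.12.

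Eef2 and Eef2k form the pair with the plainest contrast. Eef2k encodes the calcium- and calmodulin-dependent kinase that phosphorylates eEF2 and slows elongation. Its log2 ratios were 0.55, -0.36, -0.68, -0.06 and -0.25 at P6 and -4.73, -5.01, -4.20, -4.32 and -3.89 at P30. The 5 cells of each age were close together, and the lowest P6 cell lay far above the highest P30 cell. The P6 mean was -0.16 ± 0.46 and the P30 mean -4.43 ± 0.44 (SD over 5 cells), a difference of 4.27, at least 19.3-fold. Its 3 probe sets differed by 2.34, 5.14 and 5.33, and 2 of them kept the ages apart. Leaving out single cells gave 4.09 to 4.41, and the other alternatives 2.81 to 4.81. Eef2, the translocase gene, had 0.00, -0.13, 0.24, 0.15 and -0.30 at P6 and 0.10, -0.49, 0.51, 0.15 and -0.76 at P30. Its 10 cells lay within 3-fold, the ages overlapped fully, and the difference of 0.09 was smaller than either SD (0.22 and 0.52). All 10 cells lay within 3-fold in 5 factor genes (8.93%), against 8.22% of all genes, and the other 4 were Eef1a1, Eif4g2 and, chosen after their values were seen, Eif3i and Eif4h.

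**Figure D3:**
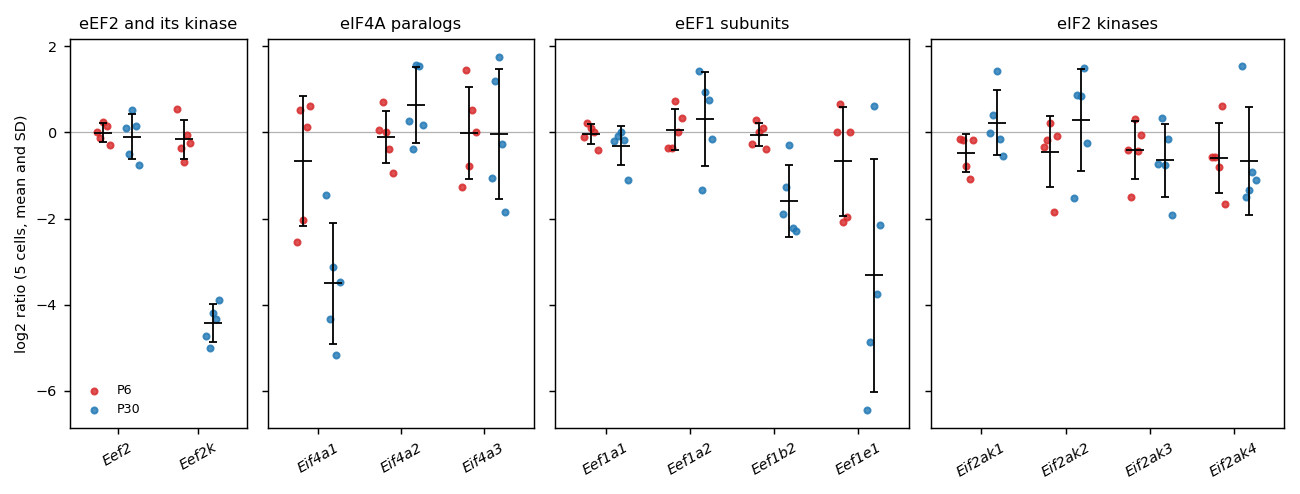
Log2 ratio in each cell (points, red for P6 and blue for P30) with the mean and SD of the 5 cells of each age. Shown are Eef2 and its kinase gene, the eIF4A paralogs, Eef1 genes and the eIF2 kinase genes. The panel of eEF1 subunits also holds Eef1e1, which encodes a protein bound to the aminoacyl-tRNA synthetase complex. The P6 and P30 points of Eef2k do not overlap (-0.68 and above against -3.89 and below), whereas those of every other gene shown overlap.

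Methyltransferases that modify lysines of the elongation factors included the factor gene with the largest difference towards P30. Eef1akmt1, the gene of a lysine methyltransferase of eEF1A, had log2 ratios of 3.90, -0.36, -0.52, -1.20 and 0.35 at P6 and 3.31, 4.24, 4.21, 4.49 and 2.48 at P30. P6 replicate 1 lay within the P30 range, and the other 4 P6 cells lay below all P30 cells. The difference was -3.31, or 9.94-fold higher at P30, and -4.18 without P6 replicate 1, where the ages no longer overlapped. All 4 probe sets had higher means at P30, from -5.66 to -0.82. Leaving out single cells gave -4.18 to -2.90. Eef2kmt, the gene of the methyltransferase of eEF2, had cells far apart at both ages: P6 replicates 2 and 5 at 6.69 and 4.88 and P30 replicate 1 at 7.01. Its difference was 0.29, with SD of 3.32 and 2.99, and ran from -0.83 without P6 replicate 2 to 1.56 without P30 replicate 1.

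**Figure D4:**
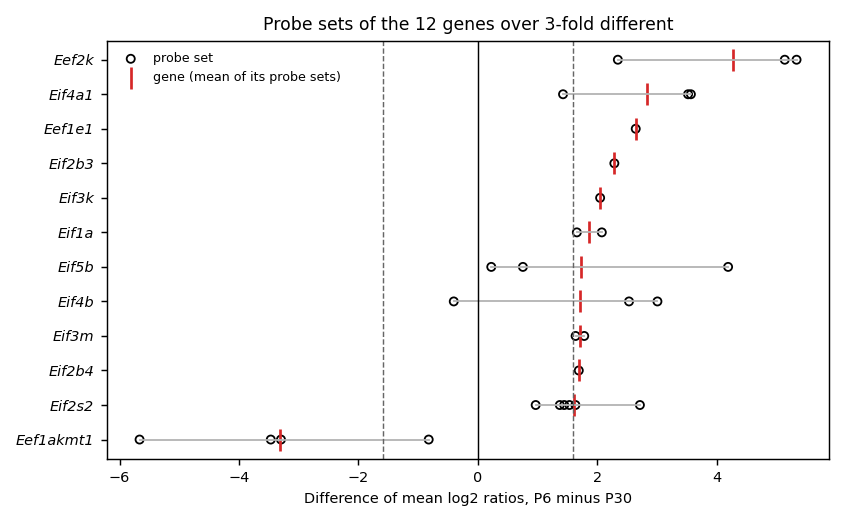
Mean log2 ratio of the P6 cells minus that of the P30 cells of every probe set (circles) and of the gene (red bar, mean of its probe sets) for the 12 genes over 3-fold; dashed lines mark 3-fold. All probe sets of Eef2k lie above 2 and those of Eif2s2 between 0.97 and 2.71, while Eif4b and Eif5b each have a probe set near 0 or below it.

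Probe sets of a gene often differed. Of the 39 factor genes with more than 1 probe set, 21 had probe sets of both signs, and Eif2ak4 and Eif4e2 had probe sets over 3-fold in both directions. Over all 148 probe sets, 31 were over 3-fold higher at P6 (12.3% of 33964 complete probe sets of 1 gene were so), 6 over 3-fold higher at P30 (6.91%), and 7 kept all P6 cells above all P30 cells (1.96%). The cDNA was primed at the poly(A) tail and kept short, so a probe set far from the 3′ end of its transcript reads little of it. The distance of the probe sets from the 3′ ends was not analysed here. For genes with processed pseudogenes or close paralogs, such as Eef1a1, Eif4a1 and Eif3e, signal of a near-identical copy could not be told apart.

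The factor genes were more spread between P30 than between P6 cells. The SD was larger at P30 in 37 of 56 genes (66.1%), against 54.7% of all genes, and the median SD was 0.79 at P6 and 1.15 at P30, against 0.92 and 0.97 for all genes. The median log2 ratio of the factors was between -0.19 and 0.00 in the P6 cells. In the P30 cells it was -0.23, -0.82, -0.39, -0.997 and -0.78 in replicates 1 to 5, where all genes had -0.18, -0.19, -0.18, -0.28 and -0.49. P30 replicate 4 had 14 factor genes more than 3-fold below the median of the other P30 cells (15.1% of all genes were so in that cell). P30 replicates 1 and 3 had 10 factor genes each more than 3-fold above (12.8% and 12% of all genes in these cells). Such departures were not confined to P30. P6 replicate 3 had 11 factor genes more than 3-fold below the median of the other P6 cells (10.6% of all genes in that cell) and 0 above (10.5%). Values at the floor numbered 4 in P6 and 16 in P30 cells.

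Other genes of protein synthesis were described from lists. For comparison, 52.4% of all genes had higher means at P6, 9.39% were over 3-fold higher at P6 and 4.93% over 3-fold higher at P30. Of 48 genes of cytosolic ribosomal proteins, 41 had higher means at P6, 17 (35.4%) differed over 3-fold with P6 higher and 1 (Rps27, looked up after its value was seen) with P30 higher, and the median difference was 0.91. In 17 of them every P6 cell exceeded every P30 cell, as in 2.13% of all genes. The P6 mean of Rps28, of the small subunit, was at least 74.1 times that at P30, and Rpl12, of the large subunit, differed by 4.74. Of 19 genes of cytosolic aminoacyl-tRNA synthetases, which charge tRNAs, 12 had higher means at P6 and the median was 0.42. Over 3-fold higher at P6 were 2 (10.5%), near the share of all genes (9.39%). These were Gars, the glycine enzyme gene, at 3.33 with no overlap of the ages, and Iars, the isoleucine enzyme gene, at 2.18 (1.25 without P30 replicate 3). Of 16 genes of release, recycling and poly(A) binding, 10 were higher at P6, with 2 over 3-fold at each age and a median of 0.38. These 2 were 12.5% of the list at each age, against 9.39% of all genes at P6 and 4.93% at P30. The pair over 3-fold higher at P30, looked up after the values were seen, was Pelo, a ribosome rescue factor gene, and Paip2, an inhibitor of poly(A)-binding protein. Abce1, the ribosome recycling ATPase gene, differed by 2.52 (at least 5.73-fold, with no overlap of the ages) and Larp1, which binds mRNAs of the translation machinery, by 2.09.

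Of 4 genes of hypusine synthesis and selenocysteine insertion, Dhps, the first enzyme gene of hypusine synthesis, differed by 1.82 with floor values at both ages (1.10 without P6 replicate 4, 1.20 without P30 replicate 2), and Eefsec, the selenocysteine elongation factor gene, by 1.61. Of 10 genes of the eIF2 phosphatase and the stress response downstream of eIF2 kinases, 6 had higher means at P6 and the median was 0.11. Only Asns, asparagine synthetase, was over 3-fold (10% of the list, all genes 9.39%), at 3.58 (11.98-fold) with no overlap of the ages. Its P6 replicates 2 and 5 stood at 3.69 and 4.98, and the other P6 cells between -1.49 and 0.00. The lowest P6 cell lay close to the highest P30 cell (-1.84), and the difference was 2.64 without P6 replicate 5. Trib3 differed by 1.26, or 0.52 without P6 replicate 2. Of 13 measured genes of mTORC1 and MNK signalling, which act on eIF4E and its binding proteins, 10 had higher means at P6, 0 were over 3-fold in either direction and the median was 0.19. Its largest differences were those of Pdcd4, an inhibitor of eIF4A, at 1.22 and Akt1s1, an mTORC1 subunit gene, at 0.82. The difference of Pdcd4 rested on P30 replicate 4, at -6.29, and was -0.084 without that cell.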

How the data were processed

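Single cells were lysed by the authors, their cDNA was made by reverse transcription and PCR and hybridised, 1 cell per array, to an Affymetrix Mouse Genome 430 2.0 array and processed the scans with RMA in GeneSpring GX 7.3. The software raised values below 0.01 to that floor and scaled arrays to their median. According to the paper, a probe set was then divided by a median that takes in both ages. The deposited values are linear ratios and mostly do not show that divisor. In 69.8% of complete probe sets the P6 median was 1 (tolerance 0.005), so their divisor was close to the P6 median. The version of RMA and the genome build are not given in the sources used here. Scanner files and detection calls were not used here, so signal over background is not known here, and precision is limited by how many arrays there are.

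Of 45101 probe sets, 43608 were complete. Ratios below 0.01, among them 10 values of 0, were set to 0.01 and log2 taken. At this floor stood 1.07% of P6 and 1.73% of P30 values. Platform annotation gave 1 gene for 34958 probe sets, several for 932 and none for 9211, and 99.4% of the first were found by Entrez ID in a RefSeq table (GRCm38.p6). A gene is the mean log2 ratio of its probe sets. For the factors, 8 probe sets with several genes and 2 with a blank (Eef2, Eif4h) were left out. Ages were compared by the difference of means, a 3-fold rule and overlap of cells, without p-values. Genes named were those over 3-fold or with ages apart, the 2 largest absolute differences per group or list, and fixed paralog and partner sets, 37 of 56 members. Members and lists were chosen with earlier results of these data known. Alternatives were other scaling, floor, averages and probe sets, and each cell left out. The code for the difference of means was checked by adding known shifts to finished gene values. That check did not cover gene mapping, the choice of complete probe sets, the floor or the averaging of probe sets. Python 3.11.15, NumPy 2.4.6, pandas 2.3.3 and Matplotlib 3.10.9 were used.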

Additional observations from a re-analysis of the deposited data

Results flagged for a closer look

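In 9 of 102 sets of 5 cells of 1 age (named genes and group medians), 1 cell stood far from the other 4, with a gap over 0.71 of the range of the set. For independent values of a normal distribution such a cell comes in about 1 in 20 sets. Values here end at a floor and the sets share genes, so 9 of 102 cannot be read against that rate. P30 replicate 4 was low for Eif2b4 (-6.64, others -1.58 to 0.28), for Eif3m (-4.57, others -1.43 to -0.26) and for the median of the eIF1 genes (-3.12, others -1.59 to -1.14). P30 replicate 2 was low for Eif4enif1 (-5.42, others -1.48 to -0.38), P30 replicate 5 for Eef1a1 (-1.11, others -0.20 to 0.01), and P30 replicate 1 was high for Eif2ak4 (1.53, others -1.51 to -0.92). At P6, replicate 4 was low for Eif2ak2 (-1.86, others -0.34 to 0.23), replicate 3 for Eif5a2 (-3.50, others -0.64 to 0.49), and replicate 2 for the median of the eIF5 and eIF6 genes (-0.44, others -0.14 to -0.08).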

How the results depend on the processing

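Precision is limited by 5 arrays per age, by ratios that hold no level and by values at the floor. No paired analysis was possible because no test is made and cells of different ages that share a number cannot be of 1 animal, so the fit with the replicate number as a block was not run. The cause of the shifts below was not tested. The count over 3-fold higher at P6 (11) was 6 after median scaling (10.7%, all genes 8.03%), 19 after spike scaling (33.9%, all genes 13.2%), 5 with a floor of 0.1 (8.93%, all genes 6.55%), 6 by medians over cells (10.7%, all genes 11.3%) and 7 by arithmetic means (12.5%, all genes 10.4%). With 1 cell left out it was 7 to 15 (12.5% to 26.8%, all genes 9.18% to 10.7%). The excess over all genes thus did not hold by medians over cells. The count over 3-fold higher at P30 (1) was 5 by arithmetic means (8.93%, all genes 8.97%). The shortfall against all genes (1.79%, all genes 4.93%) thus did not hold by arithmetic means. Genes in which every P6 cell exceeded every P30 cell (2) numbered 1 after median scaling (1.79%, all genes 1.67%) and 7 after spike scaling (12.5%, all genes 3.93%). They numbered 1 without _x_at and _s_at probe sets (1.85%, all genes 2.04%). With 1 cell left out they numbered 2 to 6 (3.57% to 10.7%, all genes 2.81% to 3.26%). The opposite order (0, all genes 1.41%) was met by 1 gene by arithmetic means and by 0 to 1 with 1 cell left out. The share of all genes in that order was not computed for these settings. The median difference of all factor genes (0.49, all genes 0.05) was 0.33 after median scaling (all genes -0.11) and 0.78 after spike scaling (all genes 0.34). It was 0.26 by arithmetic means (all genes -0.08) and 0.40 to 0.74 with 1 cell left out.

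The eEF2 pair (2.18) gave 2.47 after spike scaling, 1.45 with a floor of 0.1 and 1.77 by arithmetic means. The eIF3 genes (1.17) gave 0.75 with a floor of 0.1, 0.37 by medians over cells, 0.59 by arithmetic means, 0.77 without probe sets holding a floor value and 0.81 to 1.51 with 1 cell left out. The eIF2 kinases (-0.32) gave 0.073 by medians and -0.96 by arithmetic means. The eIF2B genes (0.90) gave 0.18 by arithmetic means and 0.50 to 1.58 with 1 cell left out, the eIF5 and eIF6 genes (0.14) 1.03 by medians, -0.45 by arithmetic means and -0.14 to 0.67 with 1 cell left out, and the methyltransferases (0.01) -0.89 by medians. Leaving out P6 replicate 5 and P30 replicate 5 together, chosen after seeing the data, gave 6 genes in which P6 cells all exceeded P30 cells (10.7%, all genes 3.83%) and 1.62 for eIF3. Of 700 values of named genes under the alternatives, 688 moved by less than the SD between cells and 12 by more. With 1 of 5 cells left out, a difference cannot move by as much as that SD. Those values were thus bound to count as smaller, and the tally is no measure of stability. Of the genes over 3-fold, 0 turned sign.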
